A study of Mus musculus with 6 samples.

Results

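The 10 genes described here are 6 fibroblast growth factor (FGF) ligands, Fgf2, Fgf6, Fgf7, Fgf9, Fgf10 and Fgf18, and the 4 FGF receptor tyrosine kinases, Fgfr1 to Fgfr4. They were taken by symbol from a table of 15648 genes, and all 10 were in it. RNA came from the intermolar eminence, the raised back part of the mouse tongue, of C57BL/6 mouse embryos at E17.5. One group is wild type (WT, 3 libraries), the other is labelled Fst-KO (3 libraries) for a mutation of the follistatin gene, Fst. The sources used here do not give the kind of allele, the tissue it acts in or the number of animals behind a library. The p-values therefore measure the spread between these libraries alone, which may be technical.

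FGF ligands are secreted proteins that bind a receptor together with heparan sulfate. The bound receptor activates the Ras and MAP kinase cascade, which switches on transcription factors such as Etv4 and Etv5 and also its own inhibitors, among them the Sprouty proteins and Dusp6. In developing oral organs Fgf7 and Fgf10 are made by mesenchyme and act on the epithelial (IIIb) splice form of Fgfr2, while Fgf9 is largely epithelial and acts on mesenchymal (IIIc) receptor forms. Fgf6 is a ligand of the skeletal muscle lineage, where Fgfr4 is also found. The intermolar eminence holds epithelium, connective tissue and muscle side by side.

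The table gives a normalised mean for each group, averaged over its 3 libraries. Single libraries are not shown, so the spread around a mean is unknown and whether the groups overlap cannot be judged. The scale of the means and the number of reads are unknown, so the level of a gene is compared between groups, and means of different genes are used only to rank or sum them on the deposited scale. Fst, the mutated gene, had a mean of 69.7 in the libraries labelled Fst-KO and 33.2 in WT, 2.10 times as high, and its FDR (the p-value adjusted over all genes) was 0.0158 in the authors' deposited table. This goes against the label, and the table cannot show whether the groups are named the right way round or which exons of Fst were read. Each direction below is that of the libraries labelled Fst-KO over WT. Were the group names exchanged, every ratio, rank and share by direction would turn, and the ratios of Fgf6, Fgf10, Fgfr2 and Fgf7 would be 2.17, 0.596, 0.683 and 0.759. The ratios of all genes had a median of 1.14, which is 0.18 on the log2 scale, and ratios are also given divided by this median.

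At an FDR under 0.05, 0 of the 10 FGF genes differed, where 0.0959% of all genes did in the authors' deposited table. With the threshold at 0.1 it was 1 of 10, Fgf6, where 0.179% of all genes passed. When p-values were adjusted again over the 7824 more abundant genes, 0 of the 6 members among them passed, where 0.0511% of those genes did. An unadjusted p under 0.05 was found for 3 members with a higher mean (Fgf10, Fgfr2 and Fgf7) and 1 with a lower mean (Fgf6) in the libraries labelled Fst-KO. Of all genes in the authors' deposited table, 13.4% had such a p on the higher side and 2.17% on the lower. The median ratio of the members was 1.10, with 5 members above and 5 below the median of all genes. The members thus lay on both sides of the general shift, from 0.461 for Fgf6 to 1.68 for Fgf10.

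**Figure D1:**
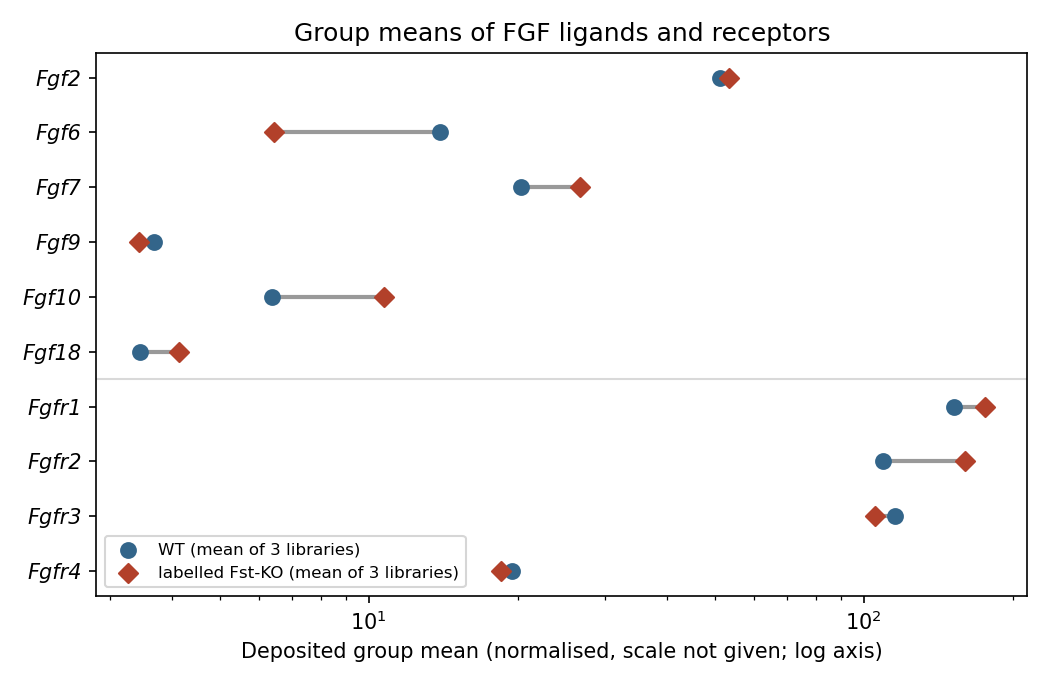
Deposited mean of each FGF gene in WT (circles) and in the libraries labelled Fst-KO (diamonds), each over 3 libraries, on a log axis of normalised units whose scale is not given. Fgf6 lies lower in the libraries labelled Fst-KO (6.43 against 13.9), while Fgf10, Fgfr2 and Fgf7 lie higher, and the other 6 pairs lie closer together.

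The 250 bases before the RefSeq start of these 4 genes are printed 5′ to 3′ on the strand of each gene, because they are the members with the lowest p-values and let the promoters be set side by side. Capitals mark each CANNTG, the E-box that myogenic and other basic helix-loop-helix factors can bind.
Fgf6: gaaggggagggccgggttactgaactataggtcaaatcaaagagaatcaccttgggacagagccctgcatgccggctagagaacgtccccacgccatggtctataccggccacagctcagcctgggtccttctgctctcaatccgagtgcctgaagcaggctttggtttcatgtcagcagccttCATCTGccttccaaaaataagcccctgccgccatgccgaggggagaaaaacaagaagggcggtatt
Fgf10: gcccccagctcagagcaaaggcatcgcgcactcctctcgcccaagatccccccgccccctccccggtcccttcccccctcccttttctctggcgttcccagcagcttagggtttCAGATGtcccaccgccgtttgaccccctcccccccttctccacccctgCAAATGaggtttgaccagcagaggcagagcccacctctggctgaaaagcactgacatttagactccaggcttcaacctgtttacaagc
Fgf7: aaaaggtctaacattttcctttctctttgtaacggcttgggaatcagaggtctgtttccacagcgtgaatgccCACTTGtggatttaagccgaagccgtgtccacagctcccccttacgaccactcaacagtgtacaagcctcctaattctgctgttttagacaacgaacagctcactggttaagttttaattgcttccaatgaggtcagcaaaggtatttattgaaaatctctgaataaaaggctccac
Fgfr2: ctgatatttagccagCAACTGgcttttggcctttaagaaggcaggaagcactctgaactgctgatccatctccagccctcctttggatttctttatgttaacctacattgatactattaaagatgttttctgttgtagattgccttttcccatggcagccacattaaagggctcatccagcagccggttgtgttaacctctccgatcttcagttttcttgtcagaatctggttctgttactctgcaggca

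The windows are chr6:127015292-127015541 (plus strand) for Fgf6, chr13:118714449-118714698 (plus strand) for Fgf10, chr2:126034408-126034657 (plus strand) for Fgf7 and chr7:130266809-130267058 (minus strand) for Fgfr2, all from RefSeq on GRCm38.p6, the assembly that mm10 names. RefSeq promoters matched 9 of the 10 members. The end of the RefSeq promoter entry was found in a GENCODE transcript for Fgf7 and Fgf10, but in none for Fgf6 and Fgfr2. The start in use in this tissue is unknown. Fgf6, Fgf7 and Fgfr2 each held 1 CANNTG and Fgf10 held 2, while 66.2% of 32851 promoter windows of this length held at least 1. The TATA box letters TATAAA, found in 12.4% of all windows on either strand, were in none of the 4. CAGAC, a core that Smad proteins bind, was in 42.2% of all windows on either strand and in 1 of the 4, that of Fgf7, where it lies on the opposite strand and is printed as gtctg. The base composition differed among them, with 61.2% G and C for Fgf10, 55.2% for Fgf6, 44.0% for Fgfr2 and 43.6% for Fgf7, where the median of all windows was 52.4%. These letters describe the windows and say nothing of what binds there.

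Among the ligands, Fgf6 had the lowest p-value of the members. It is a secreted FGF of myoblasts and fetal muscle, on chromosome 6 from 127015542 to 127024718. Its mean was 6.43 in the libraries labelled Fst-KO and 13.9 in WT. The ratio was 0.461, with p = 7.32e-05 (FDR 0.0541) in the authors' deposited table, just outside the threshold. By p it had rank 19 of all genes, and its ratio as labelled had rank 48 from the lowest. Divided by the all-gene median the ratio was 0.406. Its listed neighbours did not share the low ratio: Tigar, a regulator of glycolysis 60.4 kb away, had a ratio of 0.863 and the cyclin gene Ccnd2, 100 kb away, 1.07 in the authors' deposited table. All 7 listed genes within 200 kb of Fgf6 had an unadjusted p above 0.05. Tigar and Ccnd2 were chosen after their values were seen.

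Fgf10, the mesenchymal ligand whose loss stops limb and lung budding, had the highest ratio of the members. Its mean was 10.7 in the libraries labelled Fst-KO and 6.39 in WT. The ratio was 1.68, with p = 0.00277 (FDR 0.233) in the authors' deposited table. As labelled, 2.91% of all genes had a ratio above that of Fgf10. Divided by the all-gene median it stood at 1.48. Fgf7, also called keratinocyte growth factor, shares the receptor form with Fgf10 and had means of 26.8 and 20.3. Its ratio was 1.32, with p = 0.0466 (FDR 0.317) in the authors' deposited table, and 1.16 after division by the all-gene median. Fgf7 and Fgf10 thus both had higher means in the libraries labelled Fst-KO, as 81.0% of all genes did, without passing the FDR. The quotient of their ratios was 1.27, a difference that was not tested.

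The 3 remaining ligands had no p under 0.05. Fgf18, a ligand known from cartilage and bone growth, had means of 4.14 in the libraries labelled Fst-KO and 3.45 in WT, a ratio of 1.20 with p = 0.387 in the authors' deposited table. Fgf9 had means of 3.43 and 3.68, a ratio of 0.931 with p = 0.613 in the authors' deposited table. Fgf2, a ligand without a classical secretion signal that is stored in the matrix, had means of 53.3 and 51.4, a ratio of 1.04 with p = 0.607 in the authors' deposited table. The ratio of Fgf2 was 0.914 after division by the all-gene median, so its direction depends on the scaling. In the GENCODE annotation an exon of Nudt6, on the opposite strand, overlaps Fgf2 by up to 585 bases. The sources used here do not say whether strand was used in counting, so reads of this pair cannot be told apart, and Nudt6 itself had means of 1.12 and 1.27 in the authors' deposited table.

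Among the receptors, Fgfr2 alone had an unadjusted p under 0.05. Its mean was 160.5 in the libraries labelled Fst-KO and 109.7 in WT. The ratio was 1.46, with p = 0.0144 (FDR 0.293) in the authors' deposited table. As labelled, 6.44% of all genes had a ratio above it, and it was 1.29 after division by the all-gene median. Fgfr2 spans 130162451 to 130266808 of chromosome 7, minus strand, and GENCODE gives it 17 protein-coding transcripts. The table has 1 value per gene, so the epithelial and mesenchymal splice forms could not be separated. An exon that GENCODE gives to Fgfr2 shares up to 210 bases with an exon of Ctbp2, a corepressor gene on the same strand whose means in the authors' deposited table were 24.1 and 19.2.

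The other receptors had ratios nearer 1. Fgfr1, the main mesenchymal receptor, had means of 176.1 and 152.0, a ratio of 1.16 with p = 0.153 in the authors' deposited table, close to the all-gene median. Fgfr3, known as a brake on cartilage growth and also found in epithelium, had means of 105.6 and 116.0, a ratio of 0.911 with p = 0.685 in the authors' deposited table. Fgfr4, on chromosome 13 from 55152818 to 55168759, had means of 18.5 and 19.5, a ratio of 0.950 with p = 0.873 in the authors' deposited table. Divided by the all-gene median, Fgfr1 stood at 1.02, Fgfr3 at 0.802 and Fgfr4 at 0.836. The quotient of the Fgfr2 and Fgfr3 ratios was 1.61, a difference that was not tested. For Fgf6 and Fgfr4, both of the muscle lineage, the ratios were 0.461 and 0.950, also without a test between them.

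**Figure D2:**
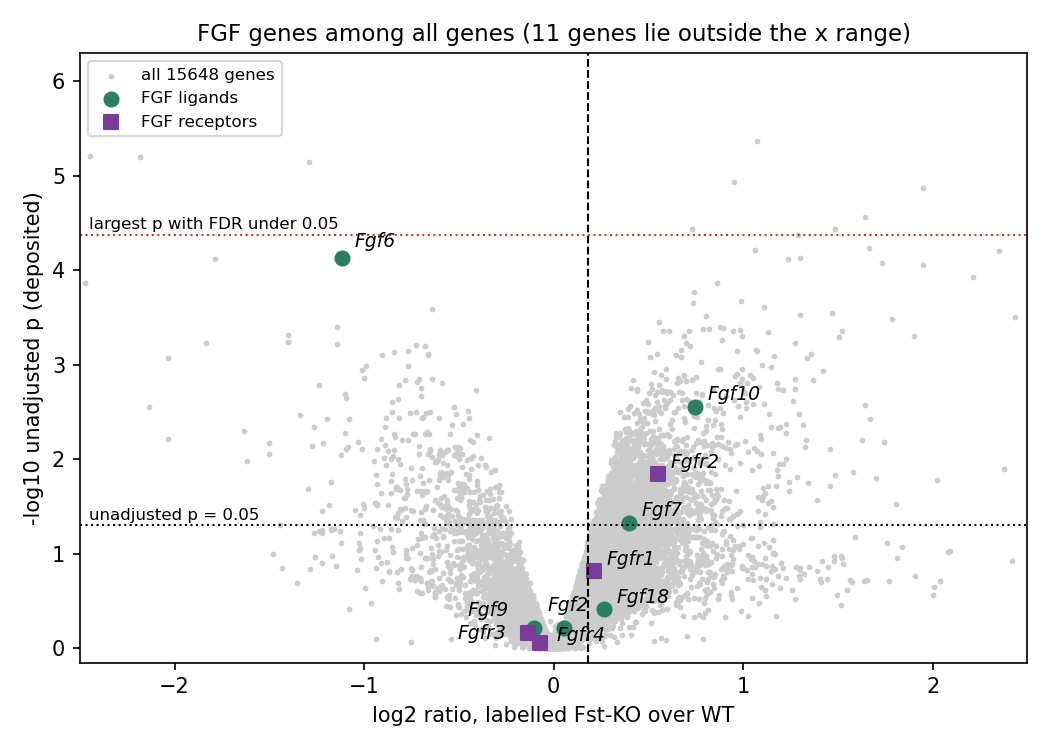
Each point is a gene, by its log2 ratio of the libraries labelled Fst-KO over WT and the -log10 of its deposited unadjusted p, with FGF ligands as green circles, receptors as purple squares and all 15648 genes in grey, of which 11 lie outside the x range. Fgf6 stands far to the left just under the upper dotted line (the largest p with an FDR under 0.05), Fgf10, Fgfr2 and Fgf7 lie right of the dashed median of all genes and above the lower dotted line (unadjusted p of 0.05), and the other 6 members lie under both lines.

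Other genes of the FGF family were in the table for 4 of 16 listed, and the remaining 12 were not analysed here. Fgf1, a ligand of all receptors, had means of 6.41 and 7.15, a ratio of 0.897 with p = 0.473 in the authors' deposited table. The other 3 encode FGF homologous factors, which stay inside the cell and bind sodium channels. Fgf13 had means of 11.3 and 14.9, a ratio of 0.753 with p = 0.0466 in the authors' deposited table. Fgf12 had 1.79 and 1.21, a ratio of 1.48 with p = 0.0414 in the authors' deposited table. These means are low, and only 4.32% of all genes had a lower mean over both groups. Fgf11 had 16.6 and 20.4, a ratio of 0.816 with p = 0.115 in the authors' deposited table. None of the 4 had an FDR under 0.05. Of the homologous factors, Fgf11 and Fgf13 had lower means and the scarce Fgf12 a higher one.

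Co-receptors and binding proteins were measured for 7 of 8, with a median ratio of 1.07, 1 higher and 0 lower at p under 0.05 before adjustment (14.3%, where 13.4% of all genes were higher). Flrt3, a membrane protein that binds FGF receptors, was that gene, with group means of 17.7 and 14.4. Its ratio in the authors' deposited table was 1.23 (p = 0.0352). Fgfrl1, a receptor without a kinase domain, had a ratio of 1.20 (p = 0.0728) and Fgfbp1, a carrier that frees FGFs from the matrix, 1.07 (p = 0.532) in the authors' deposited table. Flrt1, Flrt2 and Fgfbp3 had ratios of 1.14, 1.03 and 0.956, and the klotho co-receptor Kl, with means of 2.89 and 3.43, 0.844 in the authors' deposited table. Apart from Flrt3, these genes had no p under 0.05.

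Genes that FGF signalling itself switches on were counted in 2 lists. Of 12 feedback inhibitors 11 were measured, with a median ratio of 1.07. At p under 0.05 before adjustment 2 were higher (18.2%, where 13.4% of all genes were), 0 lower and 9 neither. The 2 were Spred2 at 1.19 (p = 0.0287) and Spred3 at 1.24 (p = 0.0452), which restrain Raf, in the authors' deposited table. The Sprouty genes Spry1, Spry2 and Spry4 had ratios of 1.04, 1.15 and 0.907 and the ERK phosphatase gene Dusp6 1.14, all without such a p, in the authors' deposited table. Of 8 transcriptional targets 7 were measured, with a median of 1.06, 1 higher (14.3%, again beside 13.4% of all genes) and 0 lower. The members with the highest means, Egr1, an immediate early factor, and Ccnd1, for cyclin D1, had ratios of 1.27 (p = 0.231) and 1.14 (p = 0.103) in the authors' deposited table. Etv4 and Etv5 had ratios of 1.03 and 1.05 and Etv1 0.789, none with a p under 0.05, in the authors' deposited table. Phlda1, a growth factor responsive gene, was the higher target, with group means of 15.9 and 9.60. Its ratio in the authors' deposited table was 1.66 (p = 0.00144, FDR 0.201). The Sprouty and Etv genes, Dusp6 and Phlda1 were chosen after their values were seen.

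Genes that carry the signal inside the cell were measured for all 22 listed, with a median ratio of 1.10, 2 higher and 0 lower at p under 0.05 before adjustment (9.09%, where 13.4% of all genes were higher). Plcg1, a phospholipase bound by active FGF receptors, was among them at 1.23 (p = 0.0351) in the authors' deposited table. The lowest ratio of the list was 0.970, for Map2k1, a kinase that activates ERK, in the authors' deposited table.

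Heparan sulfate genes, which make, carry, modify or cut the sugar chain of the ligand and receptor complex, were measured for 22 of 24, with a median ratio of 1.16. An unadjusted p under 0.05 was reached by 8 with a higher mean and 0 with a lower one (36.4% of the list, against 13.4% of all genes on the higher side). By the size of the ratio the glypican genes Gpc2 (1.33, p = 0.0231), Gpc6 (1.31, p = 0.00354) and Gpc3 (1.30, p = 0.0232) led, followed by the chain polymerase gene Ext1 (1.29, p = 0.00938) in the authors' deposited table. Among the 22, 14 lay above the median of all genes and 0 passed the FDR. In all, 73 of 90 listed pathway genes were measured, and 0 passed the FDR. Such a p was found for 15 on the higher side (20.5%, against 13.4% of all genes) and 1 on the lower (1.37%, against 2.17%). Of the 15, 8 were heparan sulfate genes.

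**Figure D3:**
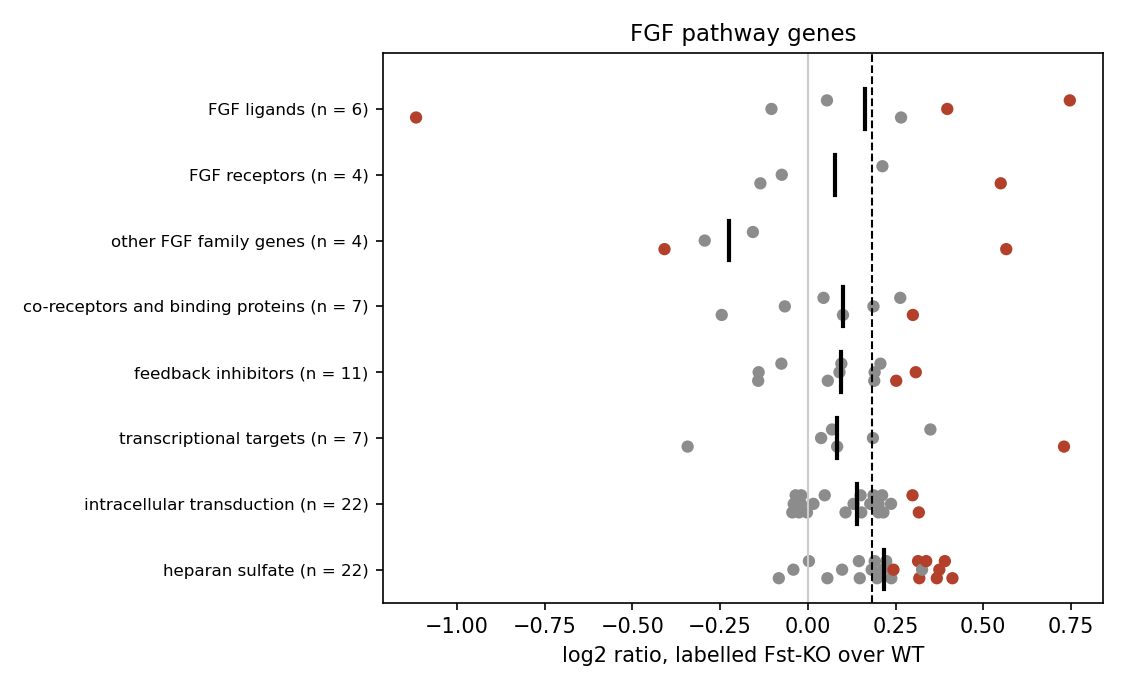
Each point is a gene of an FGF pathway list by its log2 ratio of the libraries labelled Fst-KO over WT, in red where the unadjusted p was under 0.05, with a bar at the list's median and a dashed line at the median of all genes (0.18). The ligands spread the most, from Fgf6 to Fgf10, and the list medians lie near the dashed line except for the other FGF family genes, which are 4.

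Of the cell type markers measured in the dissected tissue none passed the FDR, and they are counted at p under 0.05 before adjustment, which 13.4% of all genes reached on the higher and 2.17% on the lower side. All 10 skeletal muscle markers and all 10 mesenchyme markers were in the table, although the labels call the tissue tongue epithelium. The summed mean of the muscle markers was 10768 in the libraries labelled Fst-KO and 14775 in WT, with a median ratio of 0.756, 4 lower (40%) and 0 higher at that p, and a range from 0.655 for Myh8, the perinatal myosin, to 1.27 for Myod1 in the authors' deposited table. The ratio of Fgf6 lay below those of all 10 markers and was 0.610 of their median. It lay closer to the medians of 2 lists given below, at 1.08 of the keratinising epithelium median and 1.01 of the salivary gland median. The myogenic factors Myod1 and Myog, which mark committed myoblasts, stood at 1.27 and 0.823 in the authors' deposited table, each with p above 0.05. The part of muscle content in the value of Fgf6 was not tested. In tissue RNA, fewer cells of a type and less RNA per cell cannot be told apart.

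For mesenchyme markers the summed mean was 5888 in the libraries labelled Fst-KO and 4377 in WT, with a median ratio of 1.32, 5 higher (50%) and 0 lower at that p, and a range from 1.02 for Prrx1 to 1.40 for Col1a1 in the authors' deposited table. Fgf7 lay at 0.999 of that median, between 5 markers below it and 5 above. It lay nearly as close to the median of the basal oral epithelium markers, at 1.03 of it, with 4 markers below and 3 above. Fgf10 lay above all 10 markers, at 1.27 of their median. It lay closer to the medians of the macrophage and the neural and Schwann cell markers given below, at 1.18 of each. The receptor genes Pdgfra and Pdgfrb stood at 1.05 and 1.09 and the transcription factor genes Twist1 and Prrx1 at 1.17 and 1.02 in the authors' deposited table. These receptor genes, Twist1, Myog and Myod1 were chosen after their values were seen.

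For basal oral epithelium, which carries Fgfr2, the summed mean of 7 of 7 markers was 5260 in the libraries labelled Fst-KO and 3691 in WT. The median ratio was 1.29, with 4 higher (57.1%) and 0 lower at that p, and a range from 1.12 for Trp63 to 2.02 for Epcam in the authors' deposited table. Fgfr2 lay at 1.14 of that median, above 4 of the markers and below 3. It lay closer to the medians of 3 other lists. It was at 1.03 of the macrophage median, 1.03 of the neural and Schwann cell median and 1.11 of the mesenchyme median. Keratinising epithelium had 10 of 10 markers, summed means of 6397 and 5162, a median ratio of 0.426 and a range from 0.228 for Krt76 to 1.80 for Krt4, with 0 higher and 4 lower (40%) at that p in the authors' deposited table. Krt4 and Krt13, at 1.80 and 1.32 in the authors' deposited table, are keratins of non-keratinising mucosa, and with them the median and the sums of the list differ in direction. The 8 markers without this pair had summed means of 450.3 and 1134 and a median ratio of 0.418, a split made after the values were seen. The part of epithelial or mesenchymal content in the values of Fgfr2, Fgf7 and Fgf10 was not tested.

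Of the other cell types, endothelial markers (5 of 5) had summed means of 194.7 and 194.8, a median ratio of 1.01 and 0 with a p under 0.05. Neural and Schwann cell markers (5 of 5) had sums of 52.7 and 47.4 and a median of 1.42, with 2 higher. Macrophage markers (4 of 5, without Aif1) had sums of 28.8 and 20.5 and a median of 1.42, with 2 higher. Salivary gland markers (3 of 6, without Aqp5, Bhlha15 and Bpifa2) had sums of 4.05 and 18.0 and a median of 0.459, with 0 past that p. Most of the difference in these sums was that of Muc5b, with means of 1.44 and 12.8 (p = 0.129) in the authors' deposited table. The median was the ratio of the scarce Smgc, with means of 0.767 and 1.67, and only 1.80% of all genes had a lower mean over both groups.

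**Figure D4:**
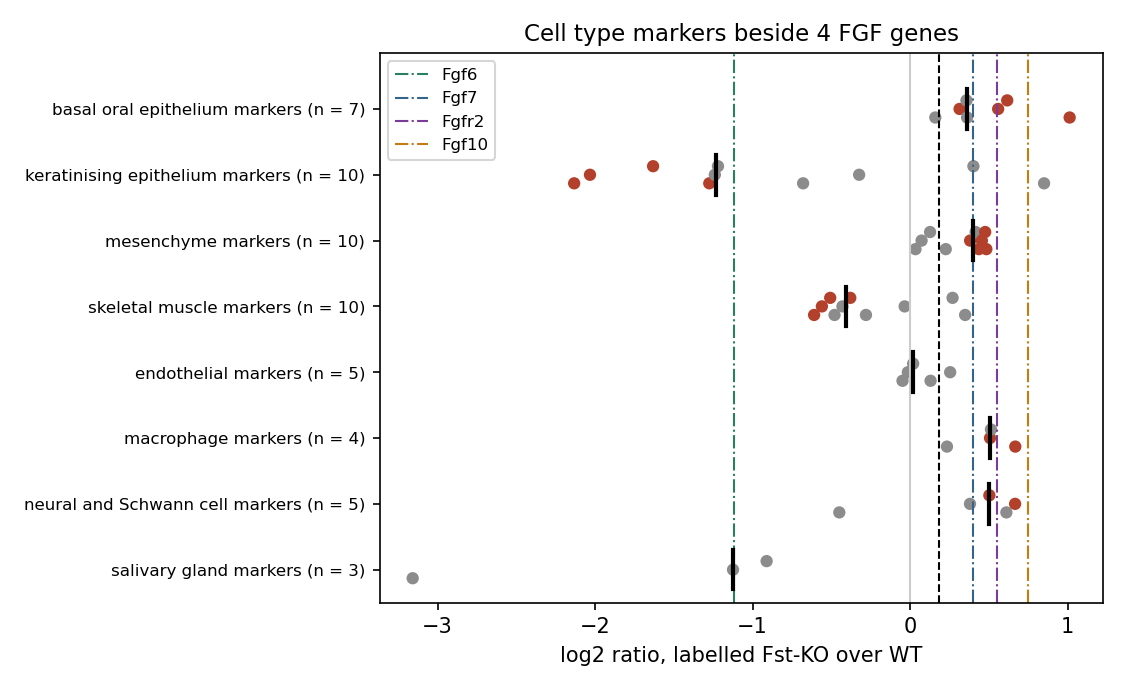
Each point is a marker gene by its log2 ratio of the libraries labelled Fst-KO over WT, in red where the unadjusted p was under 0.05, with a bar at each list's median, a dashed line at the median of all genes (0.18) and coloured lines at Fgf6, Fgf7, Fgfr2 and Fgf10. The Fgf6 line lies left of all 10 skeletal muscle markers and among the keratinising epithelium markers. The Fgf7 line runs through the mesenchyme and the basal oral epithelium markers, and the Fgf10 line lies right of all 10 mesenchyme markers.

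Fgf10 lies on the same chromosome as the mutated gene, on chromosome 13 from 118714699 to 118792573, and its start site is 4.26 Mb from that of Fst. This neighbourhood was looked at after the values were seen. Without Fst and Fgf10, 26 listed genes have a start site within 5 Mb of Fst, with a median ratio of 1.23 and 6 on the higher and 1 on the lower side at p under 0.05 before adjustment. Of these genes 23.1% were higher at that p, where 13.4% of all genes were. The genes Emb, for a cell adhesion protein, and Parp8, with ratios of 1.82 (p = 0.00577) and 1.69 (p = 0.00664) in the authors' deposited table, lie between Fst and Fgf10 and were the 2 of the 26 with a ratio above that of Fgf10. Mrps30, for a mitochondrial ribosomal protein and 3.93 Mb from Fst, had a ratio of 1.02, and Nnt, for a mitochondrial transhydrogenase and 4.95 Mb from it, 1.25 (p = 0.0872) in the authors' deposited table. The part of this position in the value of Fgf10 was not tested.

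**Figure D5:**
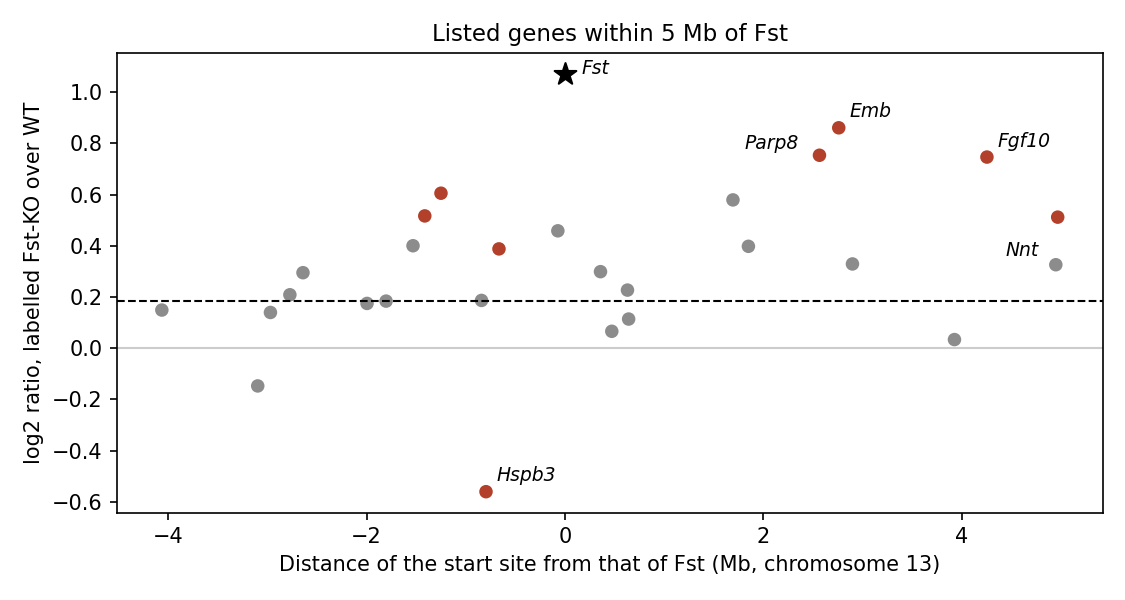
Each point is a listed gene of chromosome 13 by the distance of its start site from that of Fst (Mb) and its log2 ratio of the libraries labelled Fst-KO over WT, in red where the unadjusted p was under 0.05, with a dashed line at the median of all genes (0.18) and a star for Fst. Fgf10, Emb and Parp8 are the 3 highest points after Fst, Hspb3 is the lowest, and genes near the dashed line lie between them.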

How the data were processed

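RNA-seq of 3 WT and 3 libraries labelled Fst-KO was read from 1 deposited table. The authors aligned to mm10 with BWA 0.7.12 and worked in Partek, per the submitters' processing notes; per the series' design text, groups were compared with Partek's gene-specific analysis. The sources used here do not give the counting, annotation, normalisation or strand. The deposited p-values were adjusted again by Benjamini-Hochberg, which returned the deposited FDR for all 15648 genes. The ratio, per the file headers mutant over WT, equalled the quotient of the group means. The group means are a normalised signal made by the authors, and 3 times their sum equalled the column of totals, so each is a plain mean of 3 libraries. "Mutant" was read as Fst-KO, the only mutant group. Depth per library is unknown, and no interval could be given.

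The 10 members, 6 further pathway lists and 8 marker lists were chosen with earlier results of these data known. Named were all members, listed family genes and co-receptors, and from each other pathway list up to 4 genes with the largest ratios at p under 0.05, or else, if fewer than 2 reached it, the 2 with the highest means. A gene that this rule would name is not reported here. Positions and promoters are RefSeq's (GRCm38.p6; 14466 of 15648 symbols placed). Alternatives were pseudocounts of 1 and 10, 2 scalings, an FDR of 0.1 and genes at or above the median mean (16.1). The adjustment was tested on simulated data. Python 3.11.15 and pandas 2.3.3 were used.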

Additional observations from a re-analysis of the deposited data

How the results depend on the processing

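With an FDR of 0.1 in place of 0.05, 1 of the 10 members passed (Fgf6), and when only the more abundant genes were adjusted, 0 of the 6 members among them did; Fgf6, Fgf9, Fgf10 and Fgf18 are not among these 6. A pseudocount added to both means cannot turn a ratio across 1. Both scalings divide by a number above 1 (1.14 and 1.06), so they cannot turn a ratio below 1. Many of the 40 recomputed member ratios thus had a direction fixed in advance. Of these 40, 38 kept their direction. Those that did not were both of Fgf2, with a log2 ratio of -0.13 after division by the all-gene median and -0.035 with both sums made equal. After division by the all-gene median, the log2 of the median ratio turned to -0.020 for the FGF ligands, -0.11 for the receptors, -0.084 for co-receptors and binding proteins, -0.088 for feedback inhibitors, -0.10 for transcriptional targets and -0.044 for intracellular transduction. With both sums made equal it turned to -0.014 for the receptors and -0.0064 for the targets. Heparan sulfate genes kept their direction under both scalings, at 0.034 after division by the all-gene median and 0.13 with both sums made equal. The other FGF family genes had a median ratio below 1, which neither scaling could turn. The pseudocounts could turn neither of these 2 lists. Among the more abundant genes alone, the members with an unadjusted p under 0.05 went from 3 to 1 for the ligands, from 2 to 0 for the other FGF family genes, from 2 to 1 for feedback inhibitors, and from 1 to 0 for both co-receptors and targets, since fewer genes were counted. No paired analysis was possible because the table holds group means only, and for the same reason leaving out single replicates was not run. The depth is unknown. Among the listed genes the smallest geometric mean of the 2 group means was 1.01. Genes below that are not listed, which covers genes low in both groups and may cover genes near 0 in only 1 of them.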
